A study of Mus musculus with 8 samples.

Results

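The 10 CC chemokine genes Ccl2, Ccl3, Ccl4, Ccl5, Ccl6, Ccl7, Ccl8, Ccl9, Ccl12 and Ccl24 were followed through RNA sequencing of calvarial cells. They were chosen by symbol, with earlier results of these data known, and all 10 were found among the 25239 gene symbols of the count table. The cells came from the mouse calvaria, the bony cap of the skull, and the labels call them osteoblasts. The 8 libraries were 4 wild type littermate controls and 4 labelled KO(OSX-SphK2), called knockout-labelled below, with both groups numbered 1 to 4. OSX is another name of Sp7, the gene of a transcription factor that bone-forming cells need, and Sphk2 is the gene of sphingosine kinase 2, one of the enzymes that make the lipid signal sphingosine 1-phosphate. The labels do not say how the knockout was made or driven. How many animals a library holds was not given in the sources used here, so p-values measure only the spread between libraries, part of which may be technical.

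CC chemokines are small secreted proteins named for a pair of adjacent cysteines, and they attract leukocytes through G protein-coupled receptors. Ccl2, Ccl7, Ccl8 and Ccl12 are monocyte chemoattractants, most of which act through Ccr2. Ccl3, Ccl4 and Ccl5 are inflammatory chemokines of macrophages and lymphocytes, and Ccl3 and Ccl5 act on Ccr1. Ccl6 and Ccl9 are rodent chemokines of macrophages and related myeloid cells that act through Ccr1, and Ccl24 is an eotaxin that binds Ccr3. In bone, such signals bring in monocytes and osteoclast precursors.

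The libraries held 14347495 to 19065421 counts. Sphk2 had 89.1 ± 30.8 CPM (counts scaled to library size; SD, n = 4) in the control group and 86.3 ± 29.9 CPM (SD, n = 4) in the knockout-labelled group, so its level does not check the genotype labels. Both libraries numbered 4 stood apart from the other 6: 13 osteoclast markers summed to 11661 CPM in control 4 and 7545 CPM in knockout-labelled 4, against 600 to 678 CPM elsewhere. The 17 osteoblast markers summed to 4424 to 17363 CPM, mostly collagen I, Sparc and Spp1, while Sp7 lay between 3.29 and 46.2 CPM. The osteocalcin genes Bglap and Bglap2 were below 1 CPM except in knockout-labelled 1, at 42.3 and 40.7 CPM. The list of 27 macrophage and monocyte markers had a higher sum than the shorter osteoblast list in every library, 33855 to 55192 CPM. Lyz2 alone made 16416 to 34460 CPM of it. In control 2 Lyz2 was 17736 of 33855 CPM, where the osteoblast sum was 17363 CPM, so the order there rests on Lyz2. Because number 4 stands apart, most results are given with and without it.

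With all 8 libraries no CC chemokine passed the threshold, an adjusted p under 0.05 in edgeR's quasi-likelihood test with Benjamini-Hochberg adjustment over all genes. Ccl8 and Ccl12 did not pass the filter on low counts, and of the 8 members tested 0 rose and 0 fell, where the background was 0% of 12837 genes. Ccl3 and Ccl24 were the 2 of these 8 with an unadjusted p under 0.05, against 631 of the 12837 genes. limma-voom called 0 members, and 0% of all genes. DESeq2 called 0 of the 5 members for which it gave an adjusted p, leaving out Ccl4, Ccl5 and Ccl9, and called 0.989% of all genes higher and 0.382% lower (1.37% in all).

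In the 6 libraries numbered 1 to 3, Ccl6 and Ccl9 fell and Ccl3, Ccl4 and Ccl24 rose. Of the 12919 genes tested there 6.29% were called lower and 7.78% higher, 14.1% in all. The median log2 fold change of the 8 members was -0.08 against -0.005 for all genes, and with 8 libraries it was -0.09 against -0.02. In the number 4 pair the order of the groups was the opposite for Ccl3, Ccl4 and Ccl6, and the ratio of knockout-labelled to control was 0.986 for Ccl9 and 1.04 for Ccl24. With 1 pair that departure was not tested. Without control 4 alone 0 members passed, against 0.192% of genes higher and 0.1% lower (0.293%). Without knockout-labelled 4 alone 0 passed, against 0.131% and 0.0539% (0.185%). In bulk RNA, fewer cells of a type and less RNA per cell cannot be told apart.

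**Figure D1:**
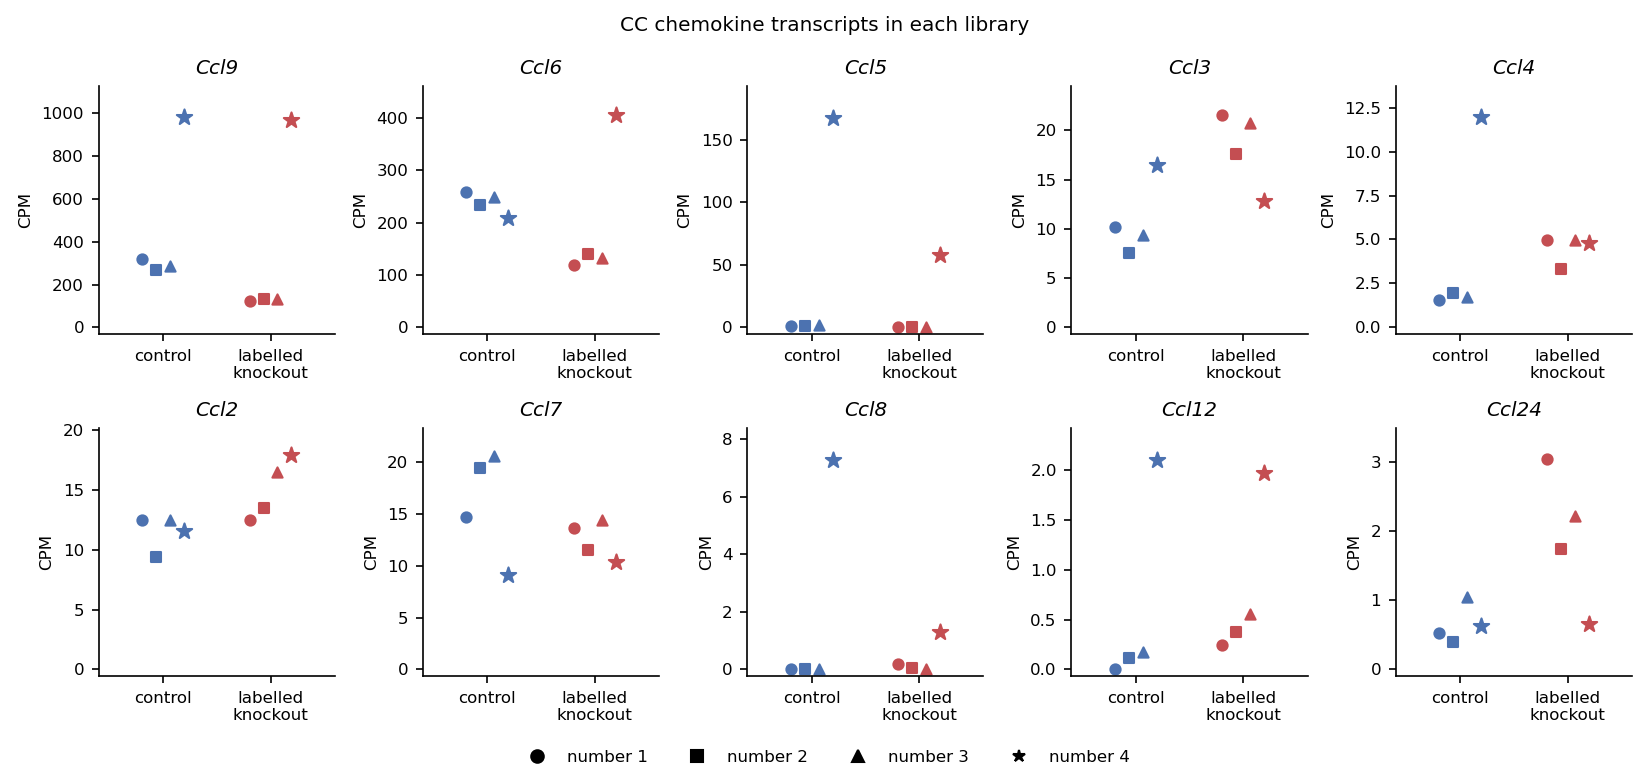
Level of each of the 10 CC chemokine genes in CPM (vertical axis, linear, its own scale per gene) in the 4 control and 4 knockout-labelled libraries, with 1 point per library and the marker showing its number. Number 4 stands far above the rest for Ccl9 and Ccl5 in both groups, and for Ccl6 in the knockout-labelled group, at 405 CPM.

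Sequences before the starts of Ccl9, Ccl6 and Ccl3 are shown because the first pair fell in numbers 1 to 3 while Ccl3, in the same gene cluster, rose. RefSeq promoters were found for 5 of the 10 members, these and Ccl8 and Ccl12. The 250 bases before the RefSeq start on GRCm38.p6 are read 5′ to 3′ on the gene's strand, and capitals mark motif matches on either strand.
Ccl9, chr11:83578637-83578886, minus strand: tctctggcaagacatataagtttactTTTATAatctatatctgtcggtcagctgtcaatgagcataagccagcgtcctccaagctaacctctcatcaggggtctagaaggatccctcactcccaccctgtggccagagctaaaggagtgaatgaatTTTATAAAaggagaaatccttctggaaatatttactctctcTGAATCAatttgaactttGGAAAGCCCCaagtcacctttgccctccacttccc
Ccl6, chr11:83593088-83593337, minus strand: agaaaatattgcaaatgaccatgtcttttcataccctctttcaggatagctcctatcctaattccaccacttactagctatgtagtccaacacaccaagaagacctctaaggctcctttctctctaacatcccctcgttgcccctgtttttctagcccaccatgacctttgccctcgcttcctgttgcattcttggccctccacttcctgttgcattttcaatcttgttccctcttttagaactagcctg
Ccl3, chr11:83649379-83649628, minus strand: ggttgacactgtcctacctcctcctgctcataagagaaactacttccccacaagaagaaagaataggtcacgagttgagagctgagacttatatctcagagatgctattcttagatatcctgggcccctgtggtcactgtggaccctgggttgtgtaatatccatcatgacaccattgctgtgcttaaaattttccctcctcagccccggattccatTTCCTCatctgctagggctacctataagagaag
The TATA box was searched as TATAAA and was found in 12.4% of 32851 promoters of this length. The core bound by PU.1 was searched as GAGGAA and was in 23.3%, and the AP-1 site, TGANTCA, in 6.75%. The NF-kappaB consensus was in 3.90%. The C/EBP site, searched as TTGCNNAA, was in 9.56% of promoters, the STAT site TTCNNNGAA in 7.02% and the IRF motif in 2.98%. Ccl9 had an NF-kappaB match 26 to 35 bases before the start and an AP-1 match 47 to 53 bases before it. TATAAA lay 87 to 92 bases before its start, overlapping a match on the opposite strand. Ccl6 had none of the letters searched, and Ccl3 had a PU.1 core on the opposite strand, 28 to 33 bases before the start. Ccl8 and Ccl12 each had TATAAA, 27 to 32 and 26 to 31 bases before the start, and a PU.1 core.

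Ccl9 and Ccl6 were the most abundant members in numbers 1 to 3. Ccl9 lies on chromosome 11 of GRCm38 from 83572919 to 83578636 and Ccl6 beside it from 83587882 to 83593087, both protein coding and on the minus strand. Controls 1 to 4 held 317, 270, 288 and 980 CPM of Ccl9, and knockout-labelled 1 to 4 held 125, 135, 131 and 966 CPM. Every control numbered 1 to 3 was above every knockout-labelled library of those numbers, and both libraries numbered 4 were above all others and close to each other. The means in numbers 1 to 3 were 292 ± 23.95 and 131 ± 4.76 CPM (SD, n = 3 each), and Ccl9 fell by 1.16 on the log2 scale (SE 0.07, edgeR adjusted p = 0.000146). With 8 libraries the log2 fold change was -0.45 (SE 0.81), and without control 4 it was 0.21. The osteoclast genes were high in number 4 too: Acp5 had 3446 and 1699 CPM there and at most 22.9 elsewhere, and Ctsk 811 and 711 CPM and at most 41.75 elsewhere. Their part in the Ccl9 level was not tested.

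For Ccl6, controls 1 to 4 gave 259, 234, 249 and 208 CPM and knockout-labelled 1 to 4 gave 120, 140, 132 and 405 CPM. The groups did not overlap in numbers 1 to 3, and in number 4 the knockout-labelled library was 1.94-fold above its control. Ccl6 fell by 0.92 on the log2 scale in numbers 1 to 3 (SE 0.07, edgeR adjusted p = 0.000231), and with 8 libraries its log2 fold change was -0.26 (SE 0.40). Control 4 was the lowest control in Ccl6, although it was 3.36-fold above the mean of the other controls in Ccl9. Knockout-labelled 4 was above the mean of its group's other libraries in both, 7.40-fold in Ccl9 and 3.10-fold in Ccl6. E230016K23Rik, which overlaps Ccl6 on the opposite strand, reached at most 1.17 CPM.

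Ccl3 and Ccl4 were higher in the knockout-labelled library in numbers 1 to 3 and lower in number 4, while Ccl5 was lower in all 4 numbers. Ccl3 (macrophage inflammatory protein 1 alpha; chromosome 11, 83647844 to 83649355, minus strand) had 10.2, 7.59, 9.43 and 16.5 CPM in the 4 controls. Knockout-labelled 1 to 4 had 21.6, 17.6, 20.8 and 12.8 CPM. Ccl3 was at least 2.13-fold and at most 2.32-fold higher in numbers 1 to 3, and in number 4 it stood at 0.777 of its control. It rose by 1.14 on the log2 scale in numbers 1 to 3 (SE 0.14, edgeR adjusted p = 0.00114). With 8 libraries the log2 fold change was 0.74 (SE 0.28, adjusted p = 0.897), and an exact permutation test of log2 CPM gave two-sided p = 0.0571. That test was run for 10 members. The smallest p it can give is 0.0286 with 4 against 4 and 0.1 with 3 against 3.

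Ccl4 (macrophage inflammatory protein 1 beta; chromosome 11, 83662584 to 83664683, plus strand) lies beside Ccl3. Its level was 1.59, 1.97, 1.75 and 11.96 CPM in the 4 controls and 4.96, 3.31, 4.95 and 4.81 CPM in knockout-labelled 1 to 4. Control 4 was the highest of all 8, and without number 4 each knockout-labelled library was above each control. Ccl4 rose by 1.32 on the log2 scale in numbers 1 to 3 (SE 0.25, edgeR adjusted p = 0.00913). With 8 libraries its log2 fold change was 0.07 (SE 0.69), and it turned negative, at -0.21 to -0.16, when control 1, 2 or 3 was left out. Per kilobase of exon, Ccl3 was the higher of the pair in every library, 1.19-fold in control 4 and 2.30- to 5.51-fold in the other 7.

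Ccl5 (RANTES; chromosome 11, 83525778 to 83530518, minus strand), a ligand of Ccr1, was set apart by number 4. The 4 controls had 20, 16, 31 and 2388 counts, or 1.06, 0.90, 1.81 and 167 CPM. Knockout-labelled 1 to 4 had 12, 3, 8 and 795 counts, or 0.74, 0.16, 0.44 and 57.9 CPM. Number 4 was 133-fold above the mean of the other controls and 129-fold above that of the other knockout-labelled libraries. Within every number the knockout-labelled library was the lower, at 0.703, 0.181, 0.246 and 0.347 of its control.

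With the number as a block in all 8 libraries Ccl5 fell, the one member past the threshold (log2 fold change -1.51, SE 0.22, edgeR adjusted p = 0.0385). Of all genes, 1.18% were called lower and 1.31% higher with the block, 2.49% in all. The call was lost with number 1, 2 or 3 left out (edgeR adjusted p = 0.168 to 0.337), where no gene of the table passed. Without the block the SE of Ccl5 was 2.20. In numbers 1 to 3 it fell with the block (-1.51, SE 0.49, adjusted p = 0.0494) and did not pass without it (adjusted p = 0.103). T and NK cells are known sources of Ccl5. Their markers Cd3d, Cd3g, Cd8b1, Ncr1 and Gzma had 0 counts in all 8 libraries, and the 11 markers summed to at most 26.2 CPM, of which Cd4 made 25.9. The 10 dendritic cell markers summed to 188 CPM in control 4 and 891 CPM in knockout-labelled 4, against 26.0 to 53.0 CPM elsewhere. Most of that in number 4 was H2-Ab1, at 166 and 819 CPM there and at most 10.95 elsewhere. The 8 endothelial markers summed to 39.65 and 56.3 CPM in number 4 and to 10.25 to 15.26 CPM elsewhere. Their part in the Ccl5 level was not tested.

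**Figure D2:**
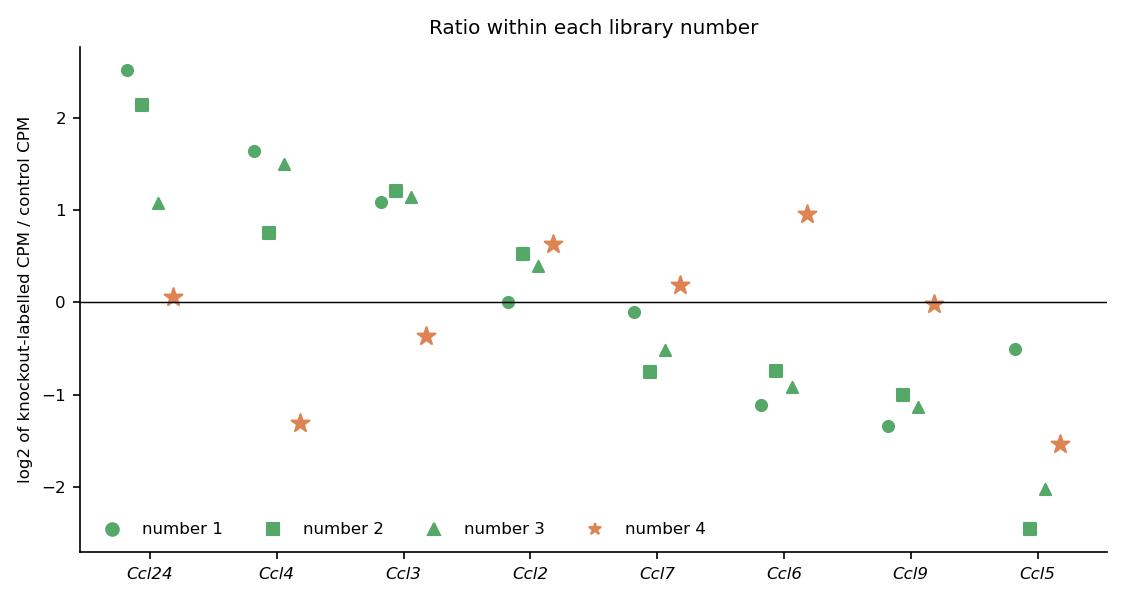
Log2 ratio of the knockout-labelled CPM to the control CPM of the same number (vertical axis) for the 8 tested CC chemokines, with 1 marker per number. For Ccl3, Ccl4, Ccl6 and Ccl7 number 4 lies across 0 from numbers 1 to 3, and Ccl2, Ccl24, Ccl5 and Ccl9 lie on 1 side in 4 of 4 numbers, although the ratio is 1.003 for Ccl2 in number 1, 0.986 for Ccl9 in number 4 and 1.04 for Ccl24 in number 4.

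The monocyte chemoattractants Ccl2 and Ccl7 are neighbours on the plus strand of chromosome 11, at 82035571 to 82037453 and 82045712 to 82047525. Ccl2, the main monocyte attractant, had 12.5, 9.39, 12.5 and 11.5 CPM in the 4 controls and 12.5, 13.5, 16.5 and 17.9 CPM in knockout-labelled 1 to 4. It was the one tested member whose groups did not overlap with 8 libraries, and the gap between the highest control and the lowest knockout-labelled library was small, 12.52 against 12.53 CPM. Of all genes 2.32% did not overlap with the knockout-labelled group higher and 1.27% with it lower, 3.59% in all. The means were 11.5 ± 1.47 and 15.1 ± 2.52 CPM (SD, n = 4 each), and the exact permutation p was 0.0286, the smallest possible. The log2 fold change of 0.40 (SE 0.17) did not pass (edgeR adjusted p = 1.0), nor did 0.39 with the block (SE 0.13, adjusted p = 0.155). In numbers 1 to 3 it was 0.31 (SE 0.15, edgeR adjusted p = 0.223). Gm17268, a gene model on the opposite strand that overlaps Ccl2, was not analysed here.

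Ccl7 had 14.7, 19.4, 20.6 and 9.09 CPM in the 4 controls and 13.7, 11.5, 14.4 and 10.3 CPM in knockout-labelled 1 to 4. Control 4 was the lowest of all 8, and in numbers 1 to 3 the controls were above the knockout-labelled libraries, the closest being 14.7 and 14.4 CPM. The log2 fold change in numbers 1 to 3 was -0.46 (SE 0.15, edgeR adjusted p = 0.0689), and it passed with the block (SE 0.13, adjusted p = 0.0267). With 8 libraries it was -0.35 (adjusted p = 1.0). Per kilobase Ccl2 stood at 0.341 to 0.893 of Ccl7 in 7 libraries and 1.22-fold above it in knockout-labelled 4.

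Ccl12 and Ccl8, also monocyte chemoattractants, lie downstream of Ccl7 on chromosome 11 (82101845 to 82103400 and 82115185 to 82116799) and were scarcely detected outside number 4. Ccl8 had 0, 0, 0 and 104 counts in the 4 controls and 3, 1, 0 and 18 in knockout-labelled 1 to 4, so control 4 alone exceeded 7 CPM. A count of 0 allows up to 0.159 to 0.175 CPM in these libraries, for counting error only. Ccl12 had 0, 2, 3 and 30 counts in the 4 controls and 4, 7, 10 and 27 in knockout-labelled 1 to 4. Both libraries numbered 4 were highest in Ccl12, at 2.10 and 1.97 CPM. In numbers 1 to 3 its groups did not overlap, with an exact permutation p of 0.1, the smallest possible there.

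Ccl24 (eotaxin 2, an attractant of eosinophils that macrophages make; chromosome 5, 135569937 to 135573049, minus strand) is the one member outside chromosome 11. It had 10, 7, 18 and 9 counts in the 4 controls, or 0.53, 0.39, 1.05 and 0.63 CPM. Knockout-labelled 1 to 4 had 49, 32, 40 and 9 counts, or 3.04, 1.74, 2.22 and 0.66 CPM. Numbers 1 to 3 were 5.74-, 4.42- and 2.12-fold higher when knockout-labelled, and in number 4 both libraries had 9 counts. Ccl24 rose by 1.83 on the log2 scale in numbers 1 to 3 (SE 0.41, edgeR adjusted p = 0.0209). With 8 libraries the log2 fold change was 1.55 (SE 0.51, adjusted p = 0.76; exact permutation p = 0.0571). The 10 mast cell, basophil and eosinophil markers summed to at most 5.47 CPM.

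**Figure D3:**
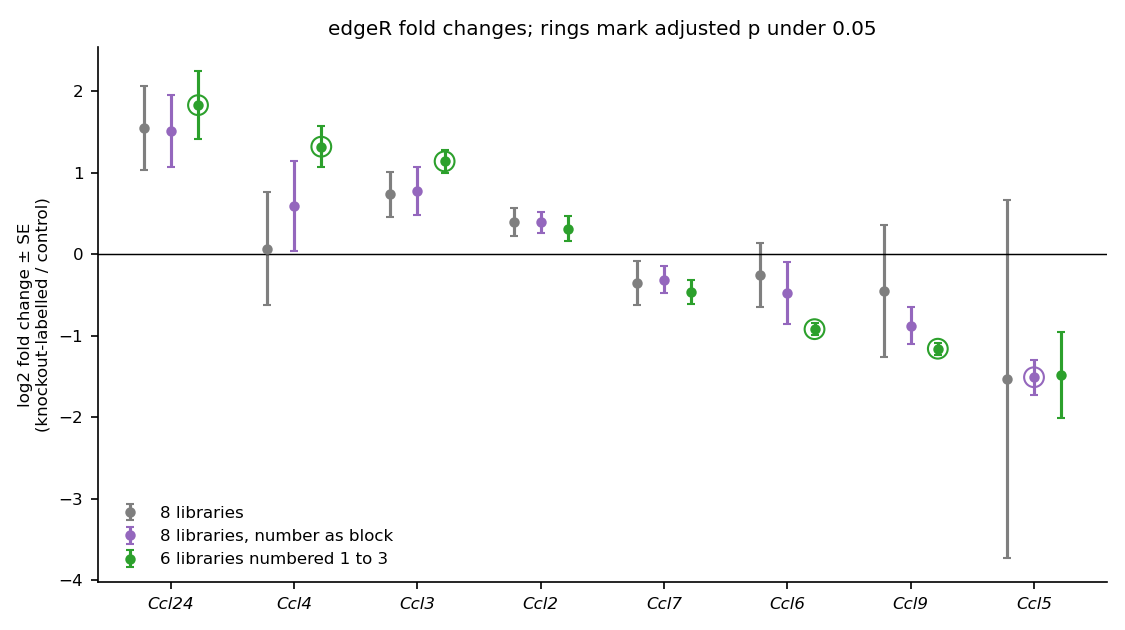
Log2 fold change (vertical axis, points) with its SE (bars) of the 8 tested CC chemokines in 3 edgeR models: all 8 libraries without and with the number as a block, and the 6 libraries numbered 1 to 3. Rings mark an adjusted p under 0.05, which 5 members have in numbers 1 to 3 and Ccl5 has in the block model of 8 libraries.

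Over the list, 8 of 8 tested members did not overlap between groups in numbers 1 to 3, with 4 higher and 4 lower. Of all genes tested 34.6% did not overlap there, 18.2% higher and 16.5% lower. Of all 10 members 9 did not overlap, the exception being Ccl8. With the block in numbers 1 to 3, 3 members rose and 4 fell, Ccl5 and Ccl7 joining Ccl6 and Ccl9, against 12.3% and 11.9% of all genes (24.2% in all). Ccl2 and Ccl24 were higher in 4 of 4 numbers and Ccl5 and Ccl9 lower, against 15.4% and 13.4% of all genes. Some of these ratios were close to 1: 1.003 for Ccl2 in number 1, and 1.042 for Ccl24 and 0.986 for Ccl9 in number 4. The members and the use of numbers 1 to 3 alone were chosen with earlier results of these data known. These counts therefore describe the list and do not test it.

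The members' summed level per kilobase of exon was lower in the knockout-labelled libraries numbered 1 to 3 than in their controls, and close in number 4. Controls 1 to 4 summed to 295, 266, 288 and 692 CPM per kilobase, and knockout-labelled 1 to 4 to 176, 179, 187 and 663. Ccl9 and Ccl6 made up 81.0 to 84.2% of the sum in controls 1 to 3 and 61.5 to 68.3% in knockout-labelled 1 to 3. In number 4 they made up 63.3% in the control and 81.9% in the knockout-labelled library. In numbers 1 to 3 the sum of the macrophage and monocyte markers overlapped between the groups, 33855 to 44454 CPM against 34674 to 38344 CPM. Much of that sum is Lyz2, and single markers differed both ways: of the 27, 8 were higher and 5 lower without overlap in knockout-labelled 1 to 3. Of all genes tested 18.2% were higher and 16.5% lower without overlap there. Vsig4 had 34.7 to 48.8 against 91.6 to 118.5 CPM, and Itgam 1586 to 1945 against 1072 to 1120 CPM. Their part in the chemokine differences was not tested.

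**Figure D4:**
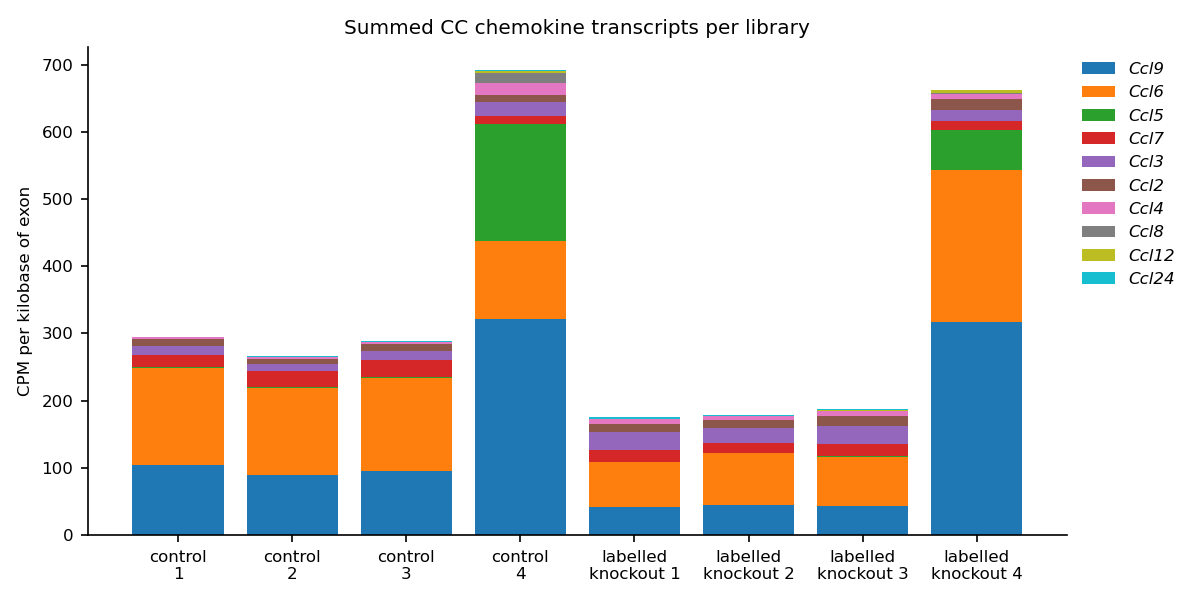
CPM per kilobase of exon (vertical axis, stacked bars from 0) of the CC chemokines in each of the 8 libraries. The bars of number 4 reach 692 and 663, and those of numbers 1 to 3 lie at 266 to 295 in the control group and 176 to 187 in the knockout-labelled group.

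Mean level per kilobase in controls 1 to 3 ran from Ccl6 (138) and Ccl9 (95.9) through Ccl7 (22.75), Ccl3 (11.8), Ccl2 (10.1), Ccl4 (2.68), Ccl5 (1.31), Ccl24 (0.51) and Ccl12 (0.18) to Ccl8 at 0 counts. The ranges of Ccl3 and Ccl2, of Ccl24 and Ccl12 and of Ccl12 and Ccl8 overlapped, so these neighbours did not differ beyond the spread over libraries, although within a library Ccl3 was above Ccl2 and Ccl24 above Ccl12 in 3 of 3. In knockout-labelled 1 to 3 Ccl3 came after Ccl9, at 26.1 CPM per kilobase, ahead of Ccl7 at 16.5 and Ccl2 at 12.5, whose ranges overlapped. Number 4 was led by Ccl9, at 322 and 317 CPM per kilobase, followed by Ccl5 (174) in the control and Ccl6 (225) in the knockout-labelled library. The order of Ccl9 and Ccl6 depends on the length used: in numbers 1 to 3 Ccl9 stood at 0.569 to 0.723 of Ccl6 per kilobase of all exons, and 1.07- to 1.36-fold above it by the shortest annotated transcripts.

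Ccr1, the receptor of Ccl3, Ccl5, Ccl6 and Ccl9, was lower in the knockout-labelled library of each number, although the 2 groups overlapped. Its level was 77.7, 62.8, 51.6 and 129 CPM in the 4 controls and 22.2, 23.8, 21.9 and 75.2 CPM in knockout-labelled 1 to 4. Each knockout-labelled library was below the control of its number, as for 13.4% of all genes, and number 4 was the highest of both groups. With 8 libraries Ccr1 did not pass (log2 fold change -1.17, SE 0.49, edgeR adjusted p = 0.986). It fell with the block (-1.30, SE 0.17, adjusted p = 0.0386) and in numbers 1 to 3 (-1.50, SE 0.15, adjusted p = 0.000739). Of all genes 1.18% were called lower with the block and 6.29% in numbers 1 to 3. The call with the block was lost without number 1, 2 or 3 (adjusted p = 0.168 to 0.337), where no gene of the table passed.

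Of the 14 CC receptor genes listed 6 were tested, and with 8 libraries edgeR called 0. Ccr1 was the 1 with an unadjusted p under 0.05, against 631 of 12837 genes. limma-voom called 0, and DESeq2 called 0 of the 4 it gave an adjusted p, all but Ccr3 and Ccr10. In numbers 1 to 3 Ccr1 fell and Ccr2 rose, 2 of 6, against 6.29% of all genes lower and 7.78% higher (14.1% in all). Ccr2, the receptor of Ccl2, Ccl7 and Ccl12, had 13.5 to 16.8 against 19.3 to 20.5 CPM in numbers 1 to 3 (log2 fold change 0.39, SE 0.11, edgeR adjusted p = 0.0426) and 6.57 and 4.22 CPM in number 4.

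Ccr3, the receptor of Ccl24, had 0.64 to 0.96 CPM in controls 1 to 3, 1.12 to 1.89 CPM in knockout-labelled 1 to 3, and 22.2 and 8.23 CPM in number 4. Its log2 fold change was -0.96 (SE 1.30, edgeR adjusted p = 1.0) with 8 libraries and 0.90 (SE 0.35, adjusted p = 0.13) in numbers 1 to 3, the opposite direction, and neither passed. Ackr4, a scavenger of other CC chemokines, had 4.55 to 9.03 against 3.04 to 5.45 CPM in numbers 1 to 3 and fell there with the block (-0.78, SE 0.21, adjusted p = 0.0243), not without it (adjusted p = 0.124). Ccrl2, which binds chemerin, lay between 2.64 and 5.77 CPM in numbers 1 to 3 and at 27.97 and 30.3 CPM in number 4. Ccr10 ranged from 0.06 to 2.48 CPM.

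**Figure D5:**
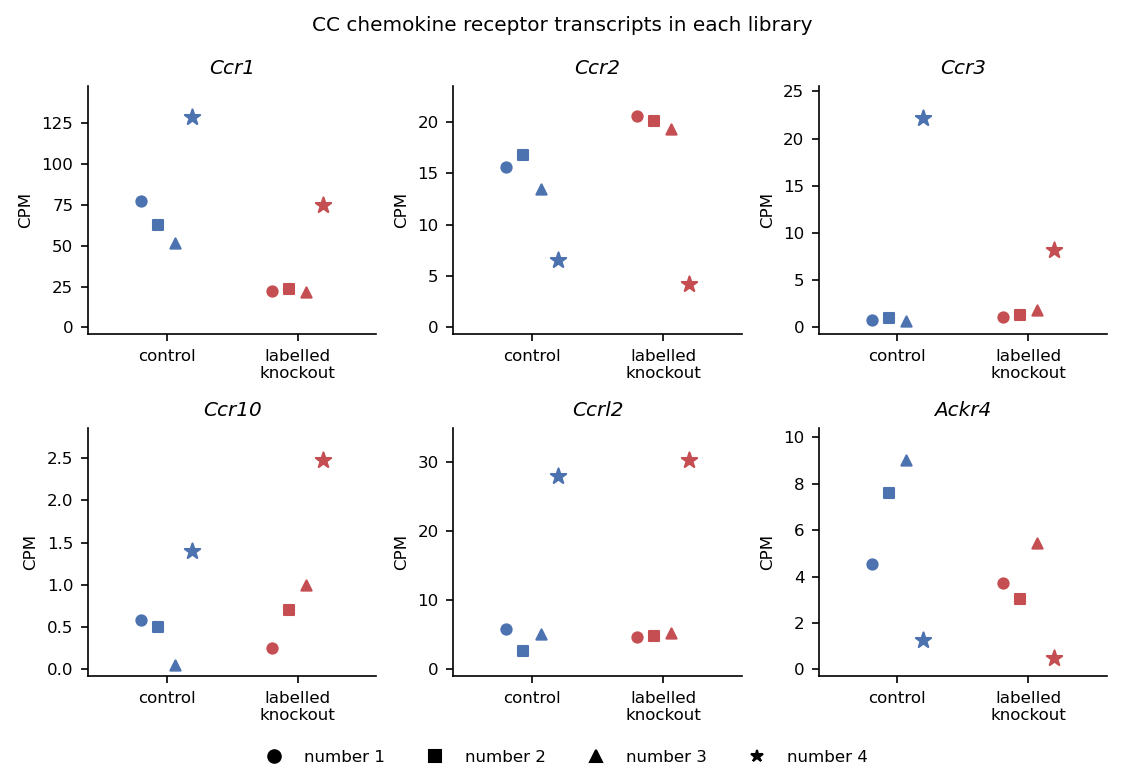
Level in CPM (vertical axis, linear, its own scale per gene) of 6 tested CC receptor genes in each library, with the marker showing its number. Ccr1 is lower in each knockout-labelled library than in the control of its number, and number 4 is high in Ccr3 and Ccrl2 and low in Ccr2 and Ackr4 in both groups.

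Of 14 other CC ligands 3 were tested. With 8 libraries edgeR and limma-voom called 0, with 0 at an unadjusted p under 0.05, against 631 and 671 of 12837 genes. DESeq2 called 0 of the 2 it gave an adjusted p (Ccl25 and Ccl27a). Ccl17, a ligand of Ccr4, had 0.28 to 1.69 CPM in the 4 controls and 0.22 to 0.82 CPM in the knockout-labelled group. It fell in numbers 1 to 3 with the block (log2 fold change -1.43, SE 0.46, edgeR adjusted p = 0.0468), not without it (adjusted p = 0.104). Ccl25 lay between 1.30 and 4.02 CPM and Ccl27a between 1.74 and 6.15 CPM. Ccl22, another Ccr4 ligand, was picked after its values were seen: it had 66 counts in control 4, 13 in knockout-labelled 4 and at most 1 elsewhere.

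The 36 NF-kappaB and chemokine-inducing genes were all tested. With 8 libraries edgeR and limma-voom called 0, with 0 at an unadjusted p under 0.05, against 631 and 671 of 12837 genes. DESeq2 called 0 of the 33 it gave an adjusted p. With the block Tlr4 rose and Irf7 fell, 2 of 36, against 1.31% of all genes higher and 1.18% lower (2.49% in all). In numbers 1 to 3, 1 rose and 5 fell, against the 7.78% and 6.29% of all genes given above. Among the 5 was Il1b, the cytokine interleukin 1 beta, with 30.6, 17.2, 13.4 and 292.5 CPM in the 4 controls and 8.68, 6.14, 8.67 and 234 CPM in knockout-labelled 1 to 4. Number 4 was the highest in both groups, as for Ccl9. Il1b fell by 1.38 on the log2 scale in numbers 1 to 3 (SE 0.34, edgeR adjusted p = 0.0483) and the NF-kappaB inhibitor Nfkbie by 0.63 (SE 0.14, adjusted p = 0.0241). With 8 libraries the log2 fold change of Il1b was -0.46 (SE 1.49), and it did not pass.

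Nfkbia, the inhibitor that NF-kappaB itself induces, did not pass in numbers 1 to 3 (log2 fold change -0.37, SE 0.14, edgeR adjusted p = 0.146), but fell there with the block (adjusted p = 0.00848). Number 4 was high in Nfkbia, at 241 and 190 CPM. Tnf, a strong inducer of chemokines, had 15.0 to 33.6 CPM in controls 1 to 3, 17.2 to 18.5 CPM in knockout-labelled 1 to 3, and 3.85 and 4.15 CPM in number 4. Nfkbiz (-0.17, SE 0.11), Rel (0.24, SE 0.15), Nfkbie (-0.42, SE 0.27) and the kinase Irak4 (0.20, SE 0.14) had the smallest unadjusted p of this list with 8 libraries, with none past the threshold. In numbers 1 to 3 with the block 17 of the 36 passed, 4 higher (Rel, Irak4, Myd88 and Tlr4) and 13 lower, Nfkbia, Nfkbie and Il1b among them, against 12.3% and 11.9% of all genes (24.2% in all).

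The genes most like Ccl9, Ccl6 and Ccl5, the members with the highest mean level per kilobase over all 8 libraries, were sought among 9504 genes by Pearson's r of log2 CPM, given as a description. Ccl5 is among them through number 4 and was the 7th of 10 in controls 1 to 3. Over 8 libraries these were Ehd1, Rplp2 and Vmp1 for Ccl9 (0.995 to 0.997), Flot1, C5ar1 and Pea15a for Ccl6 (0.957 to 0.965) and Mrpl43, Bckdha and Htra2 for Ccl5 (0.996 to 0.998). Over the 6 libraries numbered 1 to 3 they were Mmp8, Rbpj and Plaur for Ccl9, Itga8, Dmwd and Plaur for Ccl6 and Lrrfip2, Nxf1 and Naxd for Ccl5. Mmp8, the neutrophil collagenase, had 378, 314, 348 and 67.1 CPM in the 4 controls and 116, 125, 125 and 128 CPM in knockout-labelled 1 to 4, so it was not raised in number 4, where Ccl9 was highest. The 13 neutrophil markers summed to 431 to 525 CPM in controls 1 to 3, 274.5 to 300.1 CPM in knockout-labelled 1 to 3, and at least 241.8 CPM in any library. Nearly all of it was Mmp8 and Csf3r, the latter at 114 to 216 CPM. S100a8 reached 3.35 CPM, and the defining marker Ly6g reached 0.11 CPM and was at 0 in all libraries but knockout-labelled 3. These values are led by the libraries that stand apart: both numbered 4 for Ccl9 and Ccl5, and knockout-labelled 4 for Ccl6. All 3 members separate the genotype labels in numbers 1 to 3.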

How the data were processed

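RNA was sequenced from 8 libraries, and the table the authors deposited holds raw counts (whole numbers) by gene symbol. The submitters' processing notes name STAR (2.7.11b), featureCounts (2) and the build GRCm38 (mm10). Strand use, annotation and the treatment of multiply aligned reads are not given in the sources used here. Libraries of a group differed beyond sampling noise (chi-square per degree of freedom 8.56 to 307), and each was counted as a sample. Such a spread can be technical too, so it does not show that the libraries are independent. The test was edgeR 4.0.16 in R 4.3.3: filterByExpr, TMM scaling and the quasi-likelihood F test on genotype. DESeq2 1.42.0, limma 3.58.1 (voom), other scalings, no filter and left-out libraries were alternatives. CPM used TMM-scaled totals, log2 CPM a prior count of 2, and levels per kilobase the union of GENCODE M21 exons. An exact permutation test, two-sided, was used for single members. The code was tested on simulated counts.

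Same-numbered libraries correlated after each group's mean was removed (r = 0.460 to 0.829, and 0.161 to 0.376 within numbers 1 to 3), each above 0.1, so the numbers were taken as pairs, from the data and not from a label. Unlike numbers among 1 to 3 also correlated with 8 libraries (0.416 to 0.572) but not within numbers 1 to 3 (-0.255 to -0.0234). Deviations from a group mean sum to 0, so positive same-number values push the others below 0, and that contrast is partly built in. With 8 libraries control 1 correlated more with knockout-labelled 2 (0.489) than with knockout-labelled 1 (0.460), so pairing was not shown for number 1 there. Calls made with the block rest on these pairs.

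The members and lists were chosen with earlier results of these data known, as was the use of numbers 1 to 3 alone. The genes named were all 10 members, every tested other CC ligand and CC receptor of the lists, Nfkbia, Tnf, Il1b and the 4 NF-kappaB or inducer genes with the smallest unadjusted p, and the 3 most alike genes of the 3 members with the highest mean level per kilobase. No 50-base word of a member's transcripts occurred in another gene's, except 1.97% of those of Ccl9. Not every CC receptor is reported here.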

Additional observations from a re-analysis of the deposited data

Results flagged for a closer look

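In 52 groups of 4 libraries, 16 had a library whose gap to the nearest other was too large a part of the group's range on the log2 scale by Dixon's criterion, which chance gives in about 1 of 20 groups. Of these, 15 were a library numbered 4 and 7 were of CC chemokines. The groups share the same 8 libraries, and the share of all genes flagged by this rule was not computed. Number 4 stood apart across genes: its chi-square per degree of freedom within a group was 224 to 307, against 8.56 to 44.7 for other pairs. The flags are therefore not shown to be particular to these genes. Control 4 stood out high in Ccl4 (12 CPM), Ccl5 (167 CPM), Ccl8 (7.27 CPM) and Ccl9 (980 CPM). Controls 1 to 3 had 0 counts of Ccl8, so any count in control 4 would have been flagged there. Knockout-labelled 4 stood out high in Ccl6 (405 CPM) and Ccl9 (966 CPM), and knockout-labelled 2 low in Ccl4 (3.31 CPM). Among receptors, control 4 was high in Ccr3 (22.2 CPM), and knockout-labelled 4 was high in Ccr1 (75.2 CPM) and Ccrl2 (30.3 CPM) and low in Ccr2 (4.22 CPM). Knockout-labelled 4 was also high in Ccl27a (5.90 CPM), Nfkbie (49.2 CPM), Nfkbia (190 CPM) and Il1b (234 CPM) and low in Tnf (4.15 CPM).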

How the results depend on the processing

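Without number 4 the genes past the threshold went from 0 higher and 0 lower to 1005 and 812, and the members to 3 and 2. With the replicate block they were 168 and 151 genes and 0 and 1 members, and in numbers 1 to 3 with the block 1593 and 1539 genes and 3 and 4 members. DESeq2 called 127 and 49 genes. Leaving out 1 library gave 0 to 25 genes higher and 0 to 13 lower, with 25 and 13 without control 4, 17 and 7 without knockout-labelled 4 and 0 without any other. Some log2 fold changes turned sign when a library or number was left out, and over those settings Ccl4 ran from -0.257 to 1.34, Ccl5 from -6.56 to 3.54, Ccl9 from -1.83 to 0.208 and Ccr3 from -2.06 to 1.98. Ccrl2 ran from -1.06 to 1.31, Nfkbia from -0.816 to 0.0849 and Il1b from -3.50 to 1.64. The lowest or highest of each was without control 4 or knockout-labelled 4, except the lowest for Ccl4, without number 1. Ccr3 also turned to 0.0365 with the block, 0.346 with limma-voom and 0.881 without number 4 with the block, and Ccrl2 to -0.0257 without number 2 with the block. The Ccl8 difference in log2 CPM turned to 0.478 with a prior count of 0.5 and 0.633 without number 4. The cause was not tested. Of 526 log2 fold changes of 24 genes under 22 alternatives, 20 changed sign. Depth limits Ccl8, Ccl12, Ccl5 and Ccl24, which had at most 3, 10, 31 and 49 counts in numbers 1 to 3.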
